A study of Mus musculus and Homo sapiens with 20 samples.

Results

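Stab2 lies on mouse chromosome 10 (mm10, 86841194 to 87008038, 166845 bp) and is read from the minus strand. Its accessible regions were collected from 12 hepatocyte ATAC-seq peak lists by merging peaks that overlapped by at least 1 bp. Every merged region inside the gene body was taken, and every region within 50 kb for which Stab2 was the nearest protein-coding gene. This gave 81 of 642948 regions, of which 71 lay inside the gene, 9 upstream of it and 1 downstream. Of the 81, 18 had a peak in all 12 libraries and could be tested, 15 inside the gene and 3 upstream. Stab2 was picked because regions of it were higher and others lower in B2_minus than in control libraries. Those differences are therefore given below as a description. Counts of Stab2 regions past a threshold set over all regions are printed beside the share of all regions past it, and nothing is read from them.

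Stab2 encodes stabilin-2, a large scavenger receptor that takes up hyaluronan, heparin and modified lipoproteins from blood. In the liver it is best known from the endothelium of the sinusoids, together with its paralog Stab1, and not from hepatocytes. Open chromatin inside a gene body often marks enhancers, which can act on the gene that holds them or on another gene.

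The libraries came from mouse hepatocytes with floxed Ahr, the gene of the aryl hydrocarbon receptor, a ligand-activated transcription factor, and were labelled 4 weeks. Floxed Ahr was common to all of them. There were 4 groups of 3 libraries, control_Ad_Cont, B2_minus_Ad_Cont, control_Ad_Cre and B2_minus_Ad_Cre. B2_minus stands for vitamin B2 (riboflavin) deficiency, and Cre is the recombinase that removes DNA between loxP sites. The labels do not spell out Ad or say whether B2_minus was a diet or a culture medium. They also leave it unsaid if replicates were separate animals or cultures, and the p-values below cover only variation among the libraries at hand, possibly technical.

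The 300 bases around the Stab2 start site (position 87007942) overlapped no listed peak in any of the 12 libraries. Of 17274 protein-coding genes with such a window, 27.8% had none and 59.1% had one open in all 12. The nearest listed Stab2 region lay 3172 bp away and was listed in 1 library, and the nearest tested region lay 12852 bp away. Inside the gene, the region 86972017 to 86972280 overlapped the promoter of Gm16271, a long noncoding RNA gene on the plus strand (86972141 to 87031885) that runs against Stab2 across its start site. Both 250-base stretches upstream of the start sites are shown because one overlapped no listed peak in any library and the other overlapped a listed peak in every library. A stretch without a listed peak may still hold tags below the lowest listed count. They come from RefSeq GRCm38.p6, at chr10:87007943-87008192 on the minus strand for Stab2 and chr10:86971891-86972140 on the plus strand for Gm16271. The capitals in Gm16271 mark the 124 bases that lay inside the accessible region.

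Stab2: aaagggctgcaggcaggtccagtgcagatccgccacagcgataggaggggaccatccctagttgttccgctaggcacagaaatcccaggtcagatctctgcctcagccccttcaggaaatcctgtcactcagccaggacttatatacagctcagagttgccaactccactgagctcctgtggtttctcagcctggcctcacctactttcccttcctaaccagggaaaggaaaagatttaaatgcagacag

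Gm16271: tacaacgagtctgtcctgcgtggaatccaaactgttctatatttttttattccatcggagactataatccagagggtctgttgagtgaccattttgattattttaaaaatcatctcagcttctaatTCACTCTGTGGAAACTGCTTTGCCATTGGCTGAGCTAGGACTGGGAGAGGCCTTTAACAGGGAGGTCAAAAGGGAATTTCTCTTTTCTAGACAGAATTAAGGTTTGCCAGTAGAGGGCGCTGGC

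Both strands of each stretch were searched for GCGTG, the core of the AhR site. The other motifs searched were AGATAA for GATA factors, ACAGGAA for ETS factors, CAAAGTCCA for HNF4, TGTTTAC for FOXA factors, TTGCGCAA for CEBP factors and TGANTCA for AP-1. The Stab2 stretch held 0 of the 7 motifs. The Gm16271 stretch held 1 match, to GCGTG, outside the capitals, and 34.1% of 21045 promoter stretches of the same length held that motif. The other 6 motifs were found in 0.200% to 8.84% of them. A match is a string of letters and not a binding site.

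The lists gave a count of tags per peak, and each library was given the highest count among its peaks in a region, divided by the relative size of that library (scaled tags). The lists held 200698 to 281141 peaks and 3897632 to 5557678 tags per library, and the lowest listed count was 6 to 8 tags. Sequencing depth is unknown, and a site below the lowest count was not listed. Replicates varied less than Poisson counts would, with a median variance over mean of 0.558 over all 101575 tested regions and 0.559 over the 18 of Stab2. Promoters of 10 of 10 hepatocyte markers with a promoter sequence were open in all 12 libraries, against 0 of 5 of the Kupffer cell list 3 of 10 of the endothelial list (Kdr, Flt4 and Ehd3), 2 of 6 of the stellate cell list (Lrat and Reln) and 1 of 4 of the cholangiocyte list (Spp1). The Stab1 promoter was open in 6 libraries and that of Tek, an endothelial receptor, in 0. Of 9 tested regions of Ahr, 0 differed between Ad_Cre and Ad_Cont (edgeR, adjusted p under 0.05), with log2 differences of -0.30 to 0.21. The files do not say which part of Ahr is floxed, so this does not check the deletion.

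Along Stab2, the tested regions gathered in the second part of the gene, with 9 of the 15 inside it more than 100 kb downstream of the start site. The plot of scaled tags along the gene shows the strongest signal 60.2 kb downstream and 25.0 kb upstream of the start site, with low regions near the far end. Mean scaled tags over the 12 libraries ran from 10.4 to 65.3, with a median of 26.7 beside 23.3 for all tested regions. The 63 untested regions were weak, with at most 15 tags in any library. Of these, 43 were listed in 1 library and 20 in 2 to 11. None of the 63 was listed in at least 5 of 6 libraries of control or B2_minus and at most 1 of the other, a pattern that 0.523% of all untested regions had. Single libraries listed between 20 and 35 of the 81 regions.

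**Figure D1:**
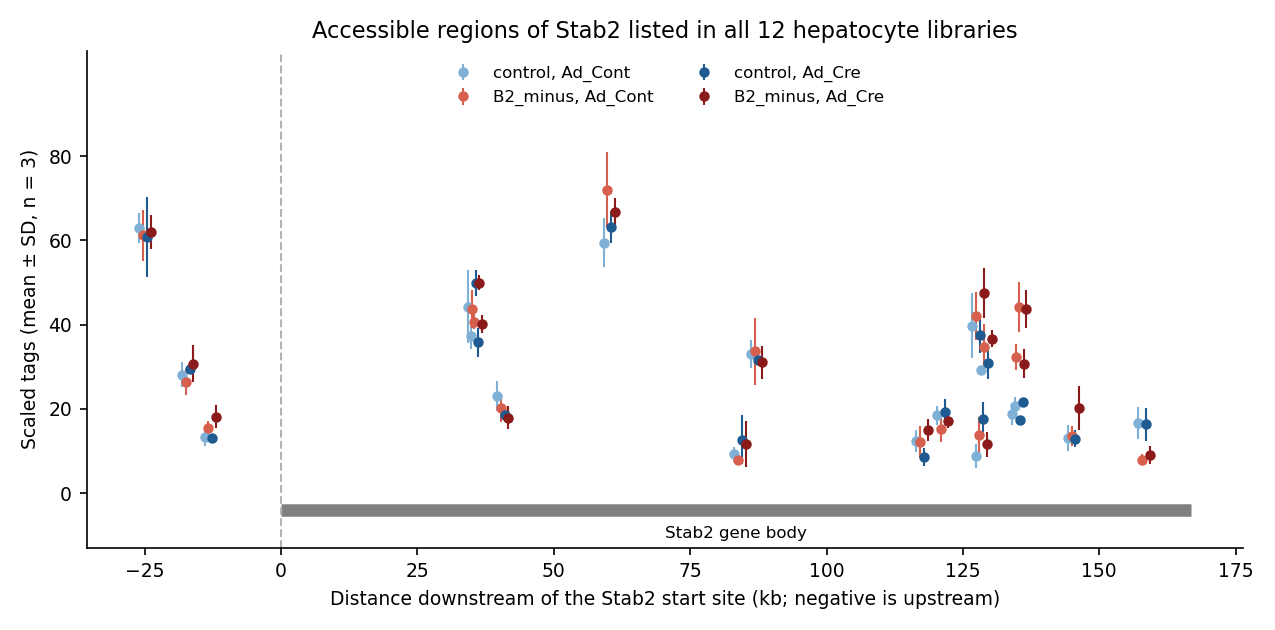
Scaled tags (mean ± SD, n = 3 libraries) at the 18 tested Stab2 regions, by distance from the start site in kb, with the gene body as a grey bar and points shifted slightly sideways by group. The pair of regions 135.1 and 135.6 kb downstream stood higher in both B2_minus groups, and the region at 158.2 kb stood lower.

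In the second part of the gene, a pair of adjoining regions was more open in B2_minus libraries, and a single region nearer to the gene's end was less open. The stronger of the pair, 86872164 to 86872567, held 18.8, 22.9 and 20.5 scaled tags in control_Ad_Cont and 22.0, 20.9 and 21.9 in control_Ad_Cre. It held 46.6, 37.3 and 48.4 in B2_minus_Ad_Cont and 40.7, 48.8 and 41.7 in B2_minus_Ad_Cre. All 6 B2_minus values lay above all 6 control values, and the means were 43.9 and 21.2. The edgeR log2 difference, averaged over the Ad arms, was 1.05 (SE 0.118).

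The second region of the pair, 86872614 to 86873016, began after a gap of 46 bp. Its scaled tags were 16.6, 17.9 and 21.6 in control_Ad_Cont and 17.6, 17.9 and 16.7 in control_Ad_Cre. In B2_minus_Ad_Cont they were 35.8, 29.8 and 31.6, and in B2_minus_Ad_Cre 34.4, 27.8 and 29.9. Again no B2_minus library overlapped a control library. The log2 difference was 0.81 (SE 0.139).

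The lower region, 86849574 to 86849906, lay 8380 bp inside the gene's end. Scaled tags were 21.0, 13.9 and 15.1 in control_Ad_Cont and 17.6, 11.9 and 19.3 in control_Ad_Cre. They were 8.96, 6.40 and 8.42 in B2_minus_Ad_Cont and 10.4, 6.70 and 9.97 in B2_minus_Ad_Cre. The 2 sets did not overlap, and the log2 difference was -0.95 (SE 0.184). The unscaled B2_minus counts of 6 to 11 tags reached down to the lowest listed counts, so the size of this fall is limited by what the lists hold. Bulk ATAC-seq cannot tell apart fewer cells with an open region and less opening in each cell.

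**Figure D2:**
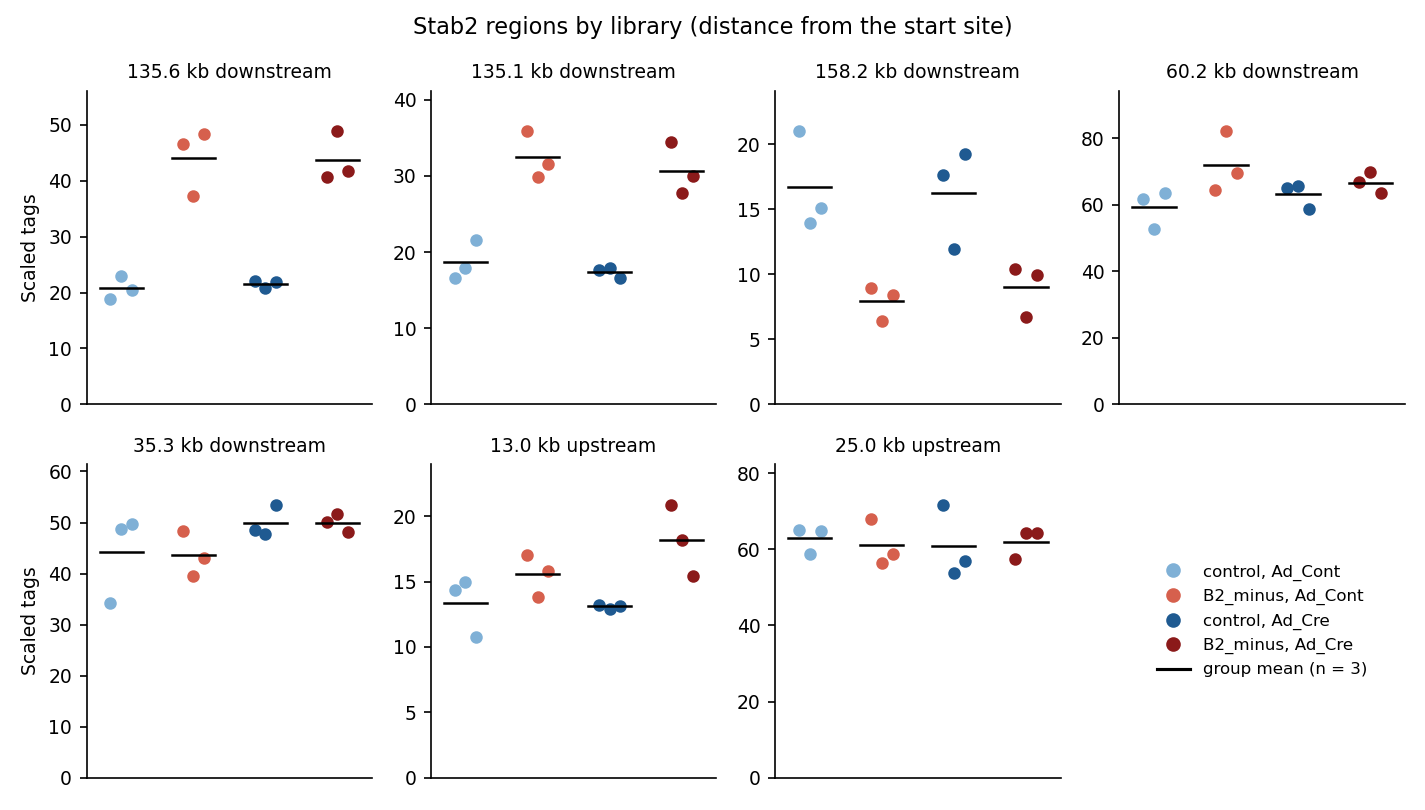
Scaled tags in each library at 7 Stab2 regions, with the group mean as a line and each panel on its own axis from 0. The first 3 panels show the pair that was higher and the region that was lower in B2_minus, where the 6 B2_minus and 6 control libraries do not overlap. The other 4 panels show the 3 strongest regions and the one nearest to the start site.

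Over all tested regions the averaged contrast called 2.45% higher and 3.33% lower (edgeR, adjusted p under 0.05), and 0.898% and 1.33% had 6 against 6 libraries without overlap. At Stab2 both counts gave the same 3 regions, 2 higher and 1 lower, which is what the gene was chosen for. DESeq2, which gave an adjusted p to 12 of the 18, called 1 higher, the stronger of the pair, and gave none to the lower region. Over all regions it called 11 higher and 34 lower. The lower region was not called when regions with a peak in at least 3 libraries were tested, where 889 of 252554 were lower. With library size taken from the listed tags, 5 were called higher and 1 lower. That scaling called 9753 of all 101575 regions higher and 1998 lower. In the main edgeR fit with Ad_Cont alone, 2 regions were higher (background 0.423%) and 1 lower (0.618%). With Ad_Cre alone, the same pair was higher (0.354%) and 0 regions were lower (0.774%), the lower region standing at -0.85 (SE 0.253) there and at -1.04 (SE 0.266) with Ad_Cont. The remaining 15 regions had averaged log2 differences of -0.22 to 0.39. Of all 18, 12 lay above 0 and 6 below, with a median of 0.09 beside 0.00 for all tested regions. Signs matched between the arms in 13 of 18.

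Between the lower region and the pair lay 22257 bp and 1 other tested region, 86862469 to 86862849. Its mean scaled tags were 13.1 and 12.9 in control_Ad_Cont and control_Ad_Cre, and 13.5 and 20.2 in the matching B2_minus groups. The B2_minus_Ad_Cre mean was the highest, but its libraries, at 15.6, 25.9 and 19.0, overlapped control_Ad_Cont, where replicate 1 held 16.6. The interaction there was 0.60 (SE 0.354, edgeR adjusted p 0.963).

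Each region of the pair held 1 listed peak of 200 bp per library, drawn in the plot of listed peaks. Peak centres varied over 204 bp in the stronger region and 203 bp in the other, and over 133 bp in the lower region. At the stronger region the median centre lay 57.5 bp above the region's middle coordinate in B2_minus and 41.0 bp below it in control libraries. The ranges overlapped, from -51.0 to 102 bp and from -102 to 43.0 bp, and the shift was not tested. The pair's log2 values correlated at Pearson r = 0.93 over the 12 libraries, but at 0.01 within the 6 control and -0.02 within the 6 B2_minus libraries, so the pooled value describes the step between the groups only.

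**Figure D3:**
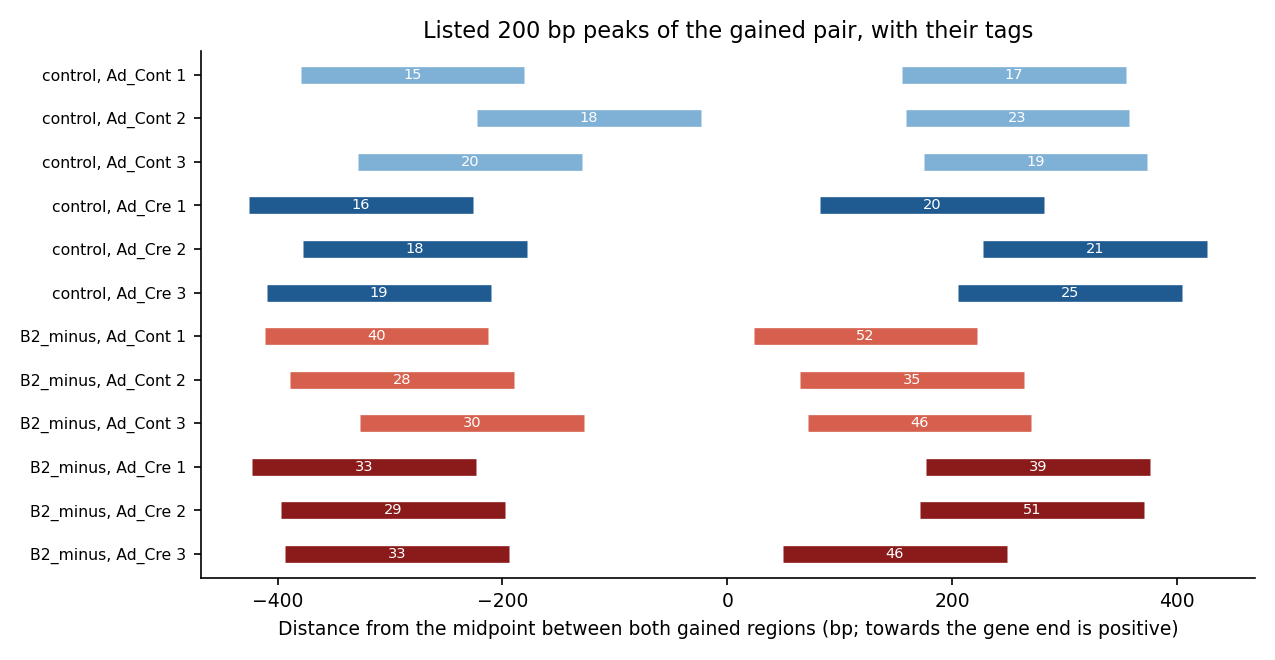
Listed peaks of the pair in each library, as bars by distance in bp from the midpoint between the regions, with the tags of each peak printed inside. Every library lists 1 peak on each side, and the B2_minus bars carry more tags than the control bars.

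At the 3 strongest Stab2 regions the 6 control and 6 B2_minus libraries overlapped. The region 86947642 to 86947928, inside the gene, held 61.9, 52.8 and 63.7 scaled tags in control_Ad_Cont, 64.5, 82.1 and 69.4 in B2_minus_Ad_Cont, 65.1, 65.6 and 58.7 in control_Ad_Cre and 66.8, 69.9 and 63.5 in B2_minus_Ad_Cre. With Ad_Cont all 3 B2_minus libraries lay above all 3 control libraries, and with Ad_Cre they overlapped. The log2 difference was 0.18 (SE 0.0723), past the threshold only with library size from the listed tags or with a peak in at least 3 libraries, among the alternatives run. At 87032756 to 87033057, upstream of the gene, the groups held 62.9 ± 3.62, 61.2 ± 6.12, 60.8 ± 9.58 and 62.0 ± 3.99 (mean ± SD, n = 3, same order), with a log2 difference of 0.01 (SE 0.0751). At 86972485 to 86972792 they held 44.2 ± 8.65, 43.7 ± 4.49, 49.9 ± 3.10 and 49.9 ± 1.83, with a log2 difference of -0.01 (SE 0.0898). The region at the Gm16271 promoter held 37.3 ± 3.07, 40.7 ± 1.72, 35.7 ± 3.51 and 40.2 ± 2.15, with a log2 difference of 0.15 (SE 0.101). The tested region nearest to the Stab2 start site, 87020794 to 87021043, was weak at 13.4 ± 2.24, 15.6 ± 1.60, 13.1 ± 0.158 and 18.2 ± 2.72 (log2 difference 0.34, SE 0.171). With Ad_Cre its B2_minus libraries (20.9, 18.2 and 15.4) lay above its control libraries (13.2, 12.9 and 13.1), while with Ad_Cont 1 B2_minus library, at 13.9, lay among the control values. How often 3 against 3 libraries separate over all regions was not counted, so nothing is read from these separations within 1 arm. The interactions at 86947642 to 86947928 and at 87020794 to 87021043 had edgeR adjusted p of 0.973 and 0.991.

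Ad_Cre against Ad_Cont was not used to choose Stab2 and was tested. Averaged over control and B2_minus, 0 of the 18 regions differed (edgeR, adjusted p under 0.05), where 0.0955% of all tested regions did. At an unadjusted p under 0.05 there were 2 of 18, beside 9.87% of all regions. Within control libraries 0 of 18 differed (background 0.00591%), with 1 at an unadjusted p under 0.05 (background 7.82%). Within B2_minus libraries it was 0 of 18 (0.00197%), with 2 at an unadjusted p under 0.05 (7.29%). DESeq2 gave 0 of 18 as well. It called only 45 of 101575 regions in the averaged B2_minus contrast, so its 0 adds little. At the pair and the lower region the averaged Ad_Cre log2 differences (edgeR) were 0.02 (95% interval -0.22 to 0.26), -0.10 (-0.38 to 0.18) and 0.08 (-0.29 to 0.45). These intervals do not reach the size of the B2_minus differences, but they leave room for smaller ones.

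The largest averaged Ad_Cre difference was at 86923532 to 86924113, with log2 0.54 (SE 0.191, edgeR adjusted p 0.260). Its scaled tags were 11.1, 7.96 and 8.64 in control_Ad_Cont and 8.96, 7.46 and 7.36 in B2_minus_Ad_Cont. They were 8.82, 9.94 and 19.3 in control_Ad_Cre and 6.26, 11.5 and 17.2 in B2_minus_Ad_Cre. In each Ad_Cre group 1 library stood highest, at 19.3 and 17.2, and the B2_minus_Ad_Cre library at 6.26 was the lowest of all 12. None of the 18 regions kept all 6 Ad_Cre libraries apart from all 6 Ad_Cont libraries, as 0.44% of all tested regions did.

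**Figure D4:**
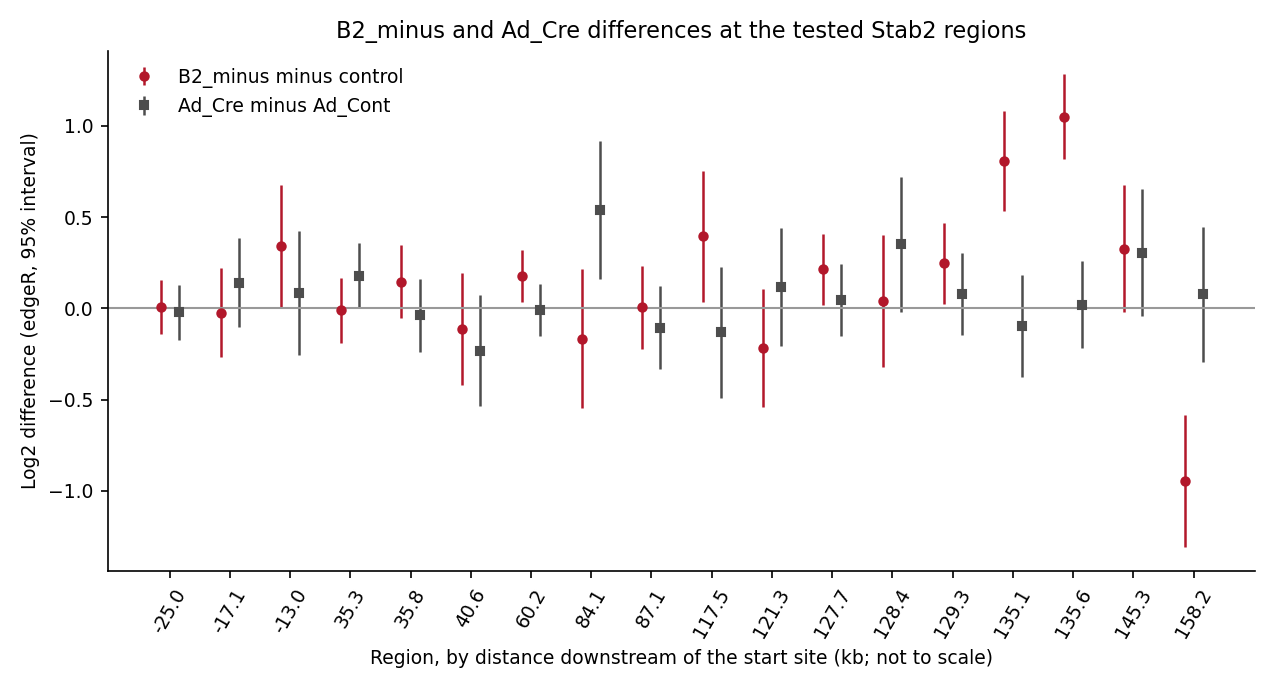
Log2 differences with 95% intervals (edgeR, 12 libraries) at the 18 Stab2 regions in order of position, for B2_minus minus control (circles) and Ad_Cre minus Ad_Cont (squares), each averaged over the other factor. B2_minus differences run from -0.95 to 1.05 and Ad_Cre differences from -0.23 to 0.54.

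Whether the B2_minus difference itself differed between the Ad arms was tested as an interaction. None of the 18 Stab2 regions passed (0 called, as over all tested regions, background 0%), with 2 of 18 at an unadjusted p under 0.05, where 5.14% of all regions lay. DESeq2 also called 0, which adds little for the reason given above. For the pair the interaction was -0.07 (95% interval -0.55 to 0.41) and 0.01 (-0.53 to 0.56), and for the lower region 0.19 (-0.55 to 0.93). The largest interaction, -1.23 (SE 0.370, edgeR adjusted p 0.823), came from 86879090 to 86880041. That region is 952 bp wide and chains 21 listed peaks, so its highest peak was not at the same place in each library. Its means were 8.89 ± 2.84 in control_Ad_Cont, 13.7 ± 4.47 in B2_minus_Ad_Cont, 17.5 ± 4.14 in control_Ad_Cre and 11.5 ± 2.94 in B2_minus_Ad_Cre. The other region under 0.05, 86890099 to 86890761, had an interaction of 0.79 (SE 0.366, edgeR adjusted p 0.955).

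Summed over the 18 regions, Stab2 signal was 498, 479 and 488 scaled tags in control_Ad_Cont and 509, 480 and 501 in control_Ad_Cre. It was 568, 513 and 529 in B2_minus_Ad_Cont and 557, 564 and 558 in B2_minus_Ad_Cre. Gains and the fall were added together in this sum, and all 6 B2_minus sums lay above all 6 control sums, a difference the choice of the gene used. Ad_Cre exceeded Ad_Cont by 15.7 scaled tags (528 ± 35.7 against 513 ± 32.6, SD, n = 6; exact two-sided permutation p = 0.435, smallest possible 0.00216). These SDs and splits pool control and B2_minus libraries. Permuting only within each, a test added after seeing the data, gave an exact permutation p of 0.145 (smallest possible 0.005). The difference turned to -4.47 with library size from the listed tags and ran from 8.57 to 26.9 on leaving out 1 library. Within control libraries the difference was 8.55 and within B2_minus 22.9, each with an exact permutation p of 0.4, where 3 against 3 allows none below 0.1.

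The neighbouring genes were counted in the same contrast. Nt5dc3, a 5'-nucleotidase domain gene that ends 2804 bp from Stab2, had 10 tested regions with log2 differences of -0.26 to 0.34, of which 1 was called higher and 2 lower in B2_minus. On the other side, 1700113H08Rik, 50007 bp away, had 4 tested regions between -0.08 and 0.14 and 0 called. Within 300 kb of Stab2, 21 regions of other genes were tested, drawn in the plot of that window, and their range of -0.26 to 0.34 was close to that of the other 15 Stab2 regions. The 3 Stab2 regions beyond it are those the gene was chosen for, so their distance from the neighbours is no separate result. Stab1, the paralog on chromosome 14, had 1 tested region (31160274 to 31160815) with 49.3 ± 2.51 scaled tags in control and 47.1 ± 5.50 in B2_minus libraries (SD, n = 6), a log2 difference of -0.07 (SE 0.0865).

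**Figure D5:**
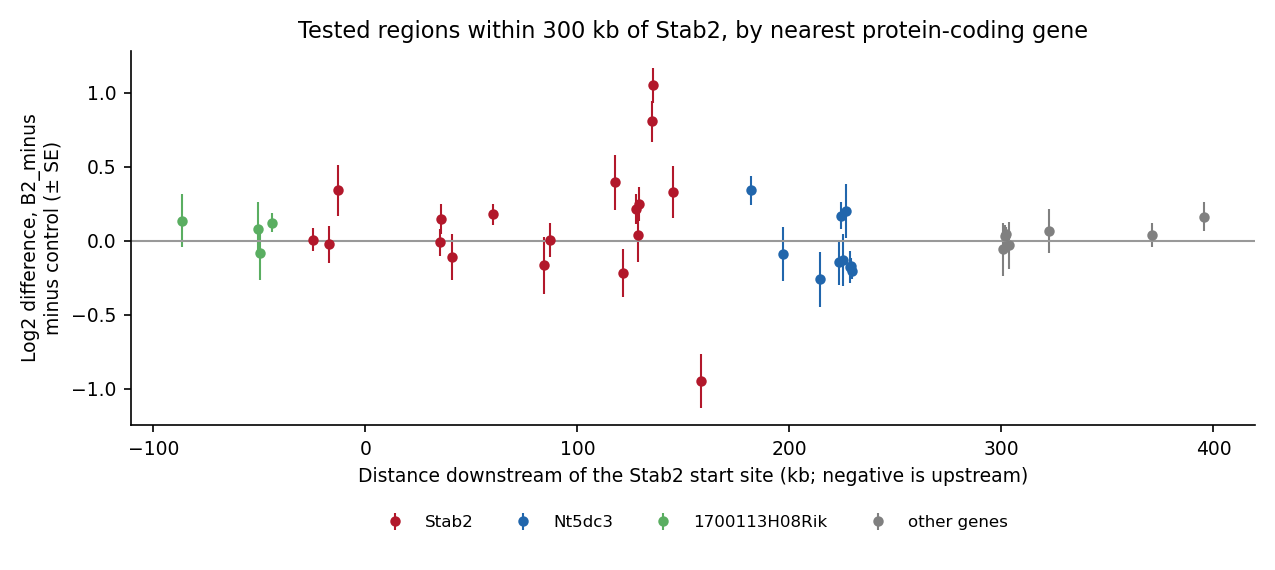
Log2 difference between B2_minus and control libraries (± SE, edgeR, 12 libraries) at tested regions within 300 kb of Stab2, by distance from its start site in kb and coloured by nearest protein-coding gene. The 21 regions of other genes lie between -0.26 and 0.34, and the Stab2 regions at 1.05, 0.81 and -0.95 are those the gene was chosen for.

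In a list of 21 other scavenger and hyaluronan genes, 155 regions were tested, of which 5 were higher and 10 lower in B2_minus (2.45% and 3.33% over all tested regions), with a median of -0.01. Lower regions lay in Mrc1, the mannose receptor (-0.62, SE 0.115), in Layn, the hyaluronan receptor layilin (-0.87, SE 0.162), near Scarb1, the HDL receptor (-0.88, SE 0.179), and near Cemip2, a cell surface protein described as a hyaluronidase (-0.72, SE 0.149). Higher regions lay near Asgr2, a subunit of the asialoglycoprotein receptor (0.64, SE 0.163), and in Has1, a hyaluronan synthase (0.59, SE 0.175). Asgr1 had calls in both directions, 1 region higher (0.28, SE 0.0918) and 1 lower (-0.51, SE 0.167). Not every called region of the list is named here. Lyve1, the hyaluronan receptor of lymphatic and sinusoidal endothelium, had 3 tested regions between 0.10 and 0.26, and Cd36, a fatty acid and scavenger receptor, 9 between -0.12 and 0.37, with 0 called in either.

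Because Stab2 marks sinusoidal endothelium, marker lists of other liver cells were set beside its values. The 19 endothelial markers other than Stab2 had 96 tested regions, 6 higher and 5 lower in B2_minus, with a median of -0.03. Their summed scaled tags ranged from 2384 to 2524 in control and from 2383 to 2503 in B2_minus libraries, which overlapped over both arms. With Ad_Cont alone the endothelial sums did not overlap and were lower in B2_minus, at 2383 to 2447 against 2462 to 2524. With Ad_Cre alone they overlapped and leaned the other way, at 2452 to 2503 in B2_minus against 2384 to 2462 in control. Hepatocyte markers had 9 regions higher and 4 lower of 131, and their sums did not overlap and were higher in B2_minus (3634 to 3727 against 3413 to 3596). Stellate cell markers had 0 higher and 3 lower of 25, with sums lower in B2_minus and without overlap (577 to 640 against 653 to 730.0). Cholangiocyte markers had 0 higher and 5 lower of 33, and Kupffer cell markers 0 called of 11, and the sums of both overlapped over both arms. Within each arm the cholangiocyte sums did not overlap and were lower in B2_minus. They were 904 to 954 against 974 to 1003 with Ad_Cont, and 890 to 920 against 947 to 1024 with Ad_Cre. The counts called in these lists stand beside 2.45% of all tested regions higher and 3.33% lower. Those shares are no background for the sums, and how often sums of other gene lists separate was not counted. The part of cell makeup in the Stab2 differences was not tested.

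The regions elsewhere whose log2 values followed the stronger Stab2 region most closely over the 12 libraries lay near Frem2, Mprip, Fpgs, Plekha6 and Anxa4 (Pearson r 0.95 to 0.96). Fpgs adds glutamates to folates, Anxa4 is an annexin that binds membranes in a calcium-dependent way, and Mprip binds actin and a myosin phosphatase. Their own log2 differences were 0.38 to 0.73. Those most like the lower Stab2 region lay near Tnfaip8, Meioc, Utrn, Malrd1 and Irak1bp1 (r 0.94 to 0.95), with differences of -0.99 to -0.45. Utrn encodes utrophin, which links actin to the cell membrane. They were picked from 101575 regions for their likeness, all share the same libraries and scaling, and the values are a description.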

How the data were processed

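Tagmented DNA of 12 hepatocyte libraries was analysed, and the 8 HepG2 libraries of the series were not used here. Each deposited file lists the peaks of 1 library with a count of tags per peak, made by the authors, and the values themselves, whole numbers with no header, are the ground for reading them as unscaled counts. The submitters' processing notes name Bowtie2, HOMER and mm10, without settings, peak thresholds or the handling of duplicates. Peaks on chromosome Y or unplaced sequences (0.151%) were left out. Genes, start sites and promoter stretches came from RefSeq GRCm38.p6, which gave no exons, so regions are placed only inside or outside the gene body. No genome sequence was used, and the planned motif search of the regions was not run.

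Counts were tested in edgeR 4.0.16 (R 4.3.3, TMM, glmQLFit with legacy set to FALSE, quasi-likelihood F test) with 4 groups and no replicate block, over the 101575 regions with a peak in all 12 libraries. P-values were adjusted by Benjamini-Hochberg over the whole table, with a threshold of 0.05. That edgeR form had been adopted in earlier work on these data after first results were seen, since replicates varied less than Poisson counts. Scaled tags are counts divided by the TMM-adjusted library size relative to the mean. The script was tested on simulated Poisson counts. Those vary more than the replicates here, so that run does not check the calls at the spread of these data. Alternatives used DESeq2 1.42.0, limma 3.58.1 on log2(scaled tags + 1), bounded edgeR, other scalings, region values and filters, a replicate block, a 10 kb limit and leaving out each library.

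By rule, the regions shown in every library were those past the threshold or without overlap between B2_minus and control, the 3 strongest and those nearest to the gene's ends. Some of them have every library in the plot of single libraries only, and group means in the text. Regions outside that rule, namely the one between the lower region and the pair, the Gm16271 promoter region and those with the largest Ad_Cre and interaction values, were picked after their values were seen. The gene, its regions and the gene lists were chosen with earlier results of these data known.

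Replicate numbers gave no sign of a strong pairing of the samples. Deviations from group means correlated between same-numbered libraries at -0.02 to 0.01 in 18 pairs, with 0 over 0.1. With counts this low a weak shared effect might not show, and the labels do not settle pairing.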

Additional observations from a re-analysis of the deposited data

How the results depend on the processing

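The Ad_Cre and interaction counts at Stab2 were 0 under each of 21 alternatives. The 10 kb limit counts 15 of the same regions in the main fit, so its 0 was fixed beforehand. In the main fit only 0.0955% of all regions were called for averaged Ad_Cre and 0% for the interaction, so these zeros are no separate result. Of the 2 higher regions, DESeq2 called 1, and library size from listed tags, without TMM, called 5, adding 86878529 to 86878803, 86880050 to 86880337 and 86947642 to 86947928. That scaling raised the median of all regions to 0.10 and turned the split of all calls from 2484 higher and 3383 lower to 9753 and 1998. DESeq2 gave 6 of the 18 regions no adjusted p, the lower region among them, so it says nothing of that call. The 1 lower region was not called when regions with a peak in at least 3 libraries were tested (0 of 29). Over all regions, calls fell from 5867 to 996 with the variance bounded at Poisson, 45 with DESeq2, 1469 with summed peaks and 4164 with at least 3 libraries, where 252554 regions were tested and the split was 3275 higher and 889 lower. Limma as planned gave 2615, and because that was far fewer, a variance trend was added after seeing the data, which gave 5392. Both limma runs and the bounded edgeR call gave 2 higher and 1 lower at Stab2. Over all regions the splits were 776 higher and 1839 lower with limma as planned, 2280 and 3112 with the trend, and 265 and 731 with bounded edgeR. Summed peaks gave 3 and 1, where the split of all regions was 433 and 1036, and at least 3 libraries gave 3 higher. Permuting Ad_Cre only within control and within B2_minus, added after seeing the data, gave 15.7 (exact permutation p = 0.145). The summed Ad_Cre difference turned to -4.47 with library size from listed tags (exact permutation p = 0.898). The cause was not tested. Leaving out 1 library gave 2 to 2 higher, 1 to 1 lower and 0 to 0 Ad_Cre or interaction calls, and summed differences of 8.57 to 26.9 (exact permutation p 0.169 to 0.688). The higher and lower calls are those the gene was chosen for, and each run kept all but 1 library, so their return is no separate result. Shares of all regions called in these runs are not given. In these runs the summed difference was 26.9 without B2_minus_Ad_Cont replicate 1, 25.3 without control_Ad_Cre replicate 2, and 8.57 to 10.0 without control_Ad_Cont replicate 2 or any 1 of the B2_minus_Ad_Cre replicates. With the replicate block every Stab2 count was the same, where 2469 of all regions were higher and 3367 lower. Pairing by number gave a summed difference of 15.7 (exact sign permutation p = 0.125). The log2 differences of the pair and the lower region ranged over 1.00 to 1.16, 0.76 to 0.92 and -1.04 to -0.83. Weak sites limit what could be seen, since a region missing from 1 list was not tested.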
